A study of Homo sapiens with 12 samples.

Results

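The genes described here are 7 human caspases, CASP1, CASP2, CASP4, CASP6, CASP8, CASP9 and CASP10, out of 60754 genes in the files. They were chosen by name and found through their gene identifiers in GENCODE, and all 7 were among the 13422 genes tested. Their RNA was sequenced in 2 acute myeloid leukemia (AML) cell lines after 36 h with or without duocarmycin SA (DSA), a natural product that binds the minor groove and alkylates adenines. Molm-14 cells, a monocytic line with an internal tandem duplication of FLT3, were grown in RPMI with 10% fetal bovine serum (FBS) and had no treatment, 11.1 pM DSA or 100 pM DSA. HL-60 cells, a promyelocytic line that lacks p53, were grown in IMDM with 20% FBS and had no treatment, 112.7 pM DSA or 500 pM DSA. The controls are called untreated in the labels, while the methods speak of vehicle. There were 2 libraries in each of the 6 groups, and nothing says that they came from separate cultures, so the p-values cover the spread between libraries alone, and that may be technical. Each line is a single model, and medium, serum and dose differ between the lines, so none of these can be told apart from the line.

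Caspases are proteases that cut after aspartate and are made as inactive precursors. Initiator caspases are switched on by being brought together on a platform: caspase-8 and caspase-10 on death receptors through FADD, caspase-9 on the apoptosome of APAF1 and cytochrome c, and caspase-2 on the PIDDosome of PIDD1 and CRADD. Caspase-6 acts downstream and cuts lamins, whereas caspase-1 and caspase-4 are inflammatory caspases that respond to inflammasomes or to cytosolic lipopolysaccharide and cut gasdermin D. Because activity is set by cleavage, the transcript levels below say how much precursor RNA was present and not whether any caspase was active.

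Total expected counts ran from 21177424 to 63927449 per library, and the share of counts from mitochondrial genes from 1.471% to 5.456%. That share was higher with dose in both lines, at 1.471% and 1.677%, then 2.447% and 2.352%, then 4.093% and 2.721% in Molm-14 cells, and at 2.222% and 2.472%, then 3.685% and 3.759%, then 5.456% and 4.637% in HL-60 cells. CASP8, CASP9 and CASP10 also stood highest at the high dose of each line, and the part of the mitochondrial share in their values was not tested. Of 4 markers of myeloid cells, all had reads in both lines. ANPEP, which encodes CD13, was near 0 in Molm-14 controls (0.188 CPM) and at 329 CPM in HL-60 controls. Another 4 genes had been listed to tell the lines apart, and their control means are given with Molm-14 first. HOXA9 was at 119 and 0.0558 CPM, MEIS1 at 36.3 and 0.113 CPM and MPO at 149 and 15680 CPM. ELANE went the opposite way to MPO, at 871.7 and 414.5 CPM. That the lines are as labelled thus rests on HOXA9, MEIS1 and MPO and not on ELANE. CPM here are counts scaled to library size with TMM factors, for comparing a gene between libraries. Levels of different genes are compared only in TPM, which are also divided by transcript length.

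In both lines the initiator caspases CASP8, CASP9 and CASP10 rose at the high dose, and CASP2, CASP4 and CASP6 did not pass the test in either line. In Molm-14 cells at 100 pM, 4 of the 7 members were higher (CASP1, CASP8, CASP9 and CASP10) and 0 were lower at an adjusted p under 0.05, where 22.9% of all genes tested were called higher and 21.9% lower. In HL-60 cells at 500 pM, 3 were higher (CASP8, CASP9 and CASP10) and 1, CASP1, was lower, where 35.8% of all genes were called higher and 37.8% lower. CASP9 in HL-60 cells was the only member past a 2-fold change, against 16.5% of all genes higher by that much. The median log2 fold change over the 7 members was 0.15 for Molm-14 and 0.11 for HL-60 cells, and over all genes 0.0038 and 0.

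**Figure D1:**
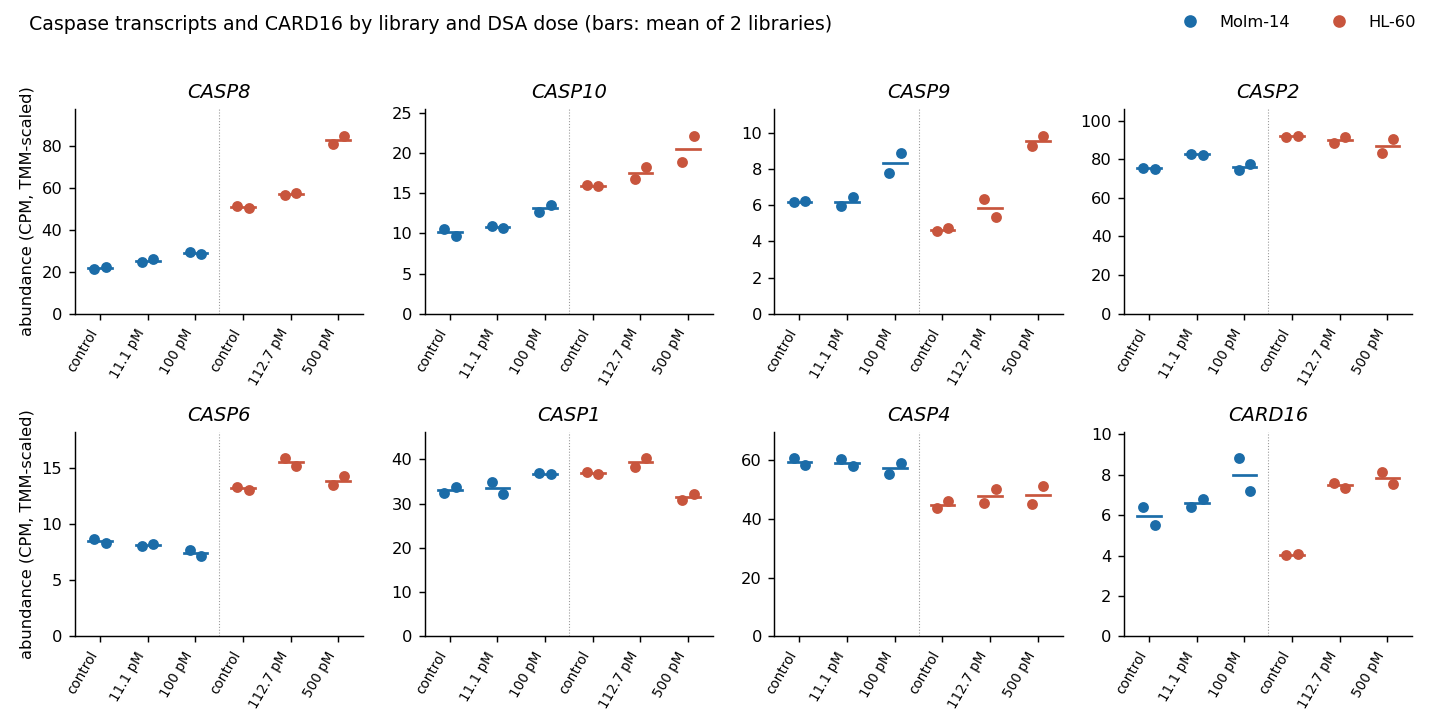
Abundance of the 7 caspases and CARD16 in each library (CPM after TMM scaling, linear axis from 0), by DSA dose, with Molm-14 in blue and HL-60 in red. Points are libraries and bars the mean of 2. CASP8 in HL-60 cells stands at 80.8 and 84.9 CPM at 500 pM, above every other library, and CASP9 at 9.27 and 9.86 CPM.

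CASP8 encodes caspase-8, which starts apoptosis from death receptors and holds back necroptosis. It lies on chromosome 2 (ENSG00000064012, chr2:201233443-201361836, hg38, plus strand). In Molm-14 cells its abundance was 21.1 and 22.2 CPM in the controls, 24.7 and 25.9 CPM at 11.1 pM and 29.2 and 28.3 CPM at 100 pM. Each dose was above the one before with no overlap between groups. The increase at 100 pM was 1.33-fold (log2 fold change 0.41 ± 0.056 SE, adjusted p = 7.31e-06 by edgeR). At 11.1 pM the log2 fold change was 0.23 ± 0.057 and missed the threshold (adjusted p = 0.0589), but it passed in 5 of the alternatives tried, among them leaving out either HL-60 library at 500 pM (adjusted p = 0.0465 and 0.0486). In HL-60 cells CASP8 was at 51.5 and 50.5 CPM in the controls, 56.5 and 57.7 CPM at 112.7 pM and 80.8 and 84.9 CPM at 500 pM. The groups again did not overlap, and most of the rise lay between the low and the high dose. CASP8 rose 1.63-fold at 500 pM (0.70 ± 0.045, adjusted p = 6.04e-11) and by 12.1% at 112.7 pM (0.16 ± 0.047, adjusted p = 0.00639). The call at 112.7 pM was lost without the second library of that dose (0.15, adjusted p = 0.0597), whereas the calls at both high doses held in every alternative.

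CASP10 encodes caspase-10, a relative of caspase-8 that is recruited to the same receptors. Its gene lies 4014 bases before CASP8 on the same strand (ENSG00000003400, chr2:201182872-201229428), and CFLAR, which encodes the related inhibitor c-FLIP, ends 6184 bases before CASP10. CASP10 was at 10.6 and 9.72 CPM in Molm-14 controls, 10.9 and 10.7 CPM at 11.1 pM and 12.7 and 13.6 CPM at 100 pM. All treated libraries lay above both controls, those at 100 pM by the most. In HL-60 cells the values were 16.0 and 15.9, then 16.8 and 18.3, then 18.9 and 22.2 CPM. The groups did not overlap, and the 2 libraries at 500 pM were the farthest apart of any group of this gene. The increase at the high dose was 0.37 ± 0.089 in Molm-14 (adjusted p = 0.0022) and 0.38 ± 0.078 in HL-60 cells (adjusted p = 0.000248), and the difference between these changes was 0.0074 ± 0.12 (adjusted p = 0.992). Without the second library at 500 pM the HL-60 value was 0.24 (adjusted p = 0.0253) and the difference -0.13 (adjusted p = 0.398). CFLAR, whose values were seen before it was picked out as a neighbor, rose by 0.37 (adjusted p = 1.25e-05) and 0.20 (adjusted p = 0.0019). All 3 genes of this cluster, set together with their calls known, were thus called higher in both lines, where 22.9% and 35.8% of all genes were. This is a description only. Reads from adjacent genes on the same strand could be shared by transcripts that run through, which was not tested.

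CASP9 encodes caspase-9, the initiator of the mitochondrial route (ENSG00000132906, chr1:15490832-15526534, minus strand), and was among the least abundant members. Its counts ran from 195 to 295 in Molm-14 and from 132 to 321 in HL-60 libraries, so its errors are the widest of the 7. In Molm-14 cells it was at 6.16 and 6.22 CPM in the controls and 5.96 and 6.44 CPM at 11.1 pM, which overlapped, and at 7.81 and 8.89 CPM at 100 pM, which stood above both. That was a 1.35-fold increase (0.43 ± 0.11, adjusted p = 0.00459), and the call was lost without the second library at 100 pM (0.33, adjusted p = 0.0631). In HL-60 cells CASP9 was at 4.56 and 4.73 CPM in the controls, 6.36 and 5.34 CPM at 112.7 pM and 9.27 and 9.86 CPM at 500 pM. No group overlapped another. The rise was 2.06-fold at 500 pM (1.04 ± 0.11, adjusted p = 1.23e-07). At 112.7 pM it was 1.24-fold (0.32 ± 0.12, adjusted p = 0.041), and that call was lost in 8 alternatives, among them DESeq2 (adjusted p = 0.078), without the first library at 112.7 pM (0.20, adjusted p = 0.296), without either HL-60 control and without the second Molm-14 control (adjusted p = 0.0501).

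CASP2 encodes caspase-2, which is tied to the response to DNA damage and to extra centrosomes (ENSG00000106144, chr7:143288215-143307696, plus strand). Molm-14 libraries held 75.4 and 75.0 CPM in the controls, 82.6 and 82.4 CPM at 11.1 pM and 74.5 and 77.5 CPM at 100 pM. The low dose stood above both other groups. Its difference from the controls did not pass after adjustment (0.13 ± 0.043, unadjusted p = 0.00632, adjusted p = 0.173), and the fall from the low to the high dose of 0.12 on the log2 scale did (adjusted p = 0.0357), but not without either control, the first library at 100 pM or either at 11.1 pM (adjusted p from 0.0518 to 0.244). In HL-60 cells the values were 91.3 and 92.3, then 88.6 and 91.6, then 83.0 and 90.4 CPM, and the change at 500 pM was -0.08 ± 0.043 (adjusted p = 0.107). Without the second library at 500 pM it was -0.15 and passed (adjusted p = 0.0128), and with libraries scaled by total counts alone it turned to 0.11 (adjusted p = 0.0324).

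The changes at each dose are plotted for all members in the graph of log2 fold changes. The initiators of the death receptor and mitochondrial routes lie to the right of 0 at the high doses, and CASP2 lies between -0.08 and 0.13.

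**Figure D2:**
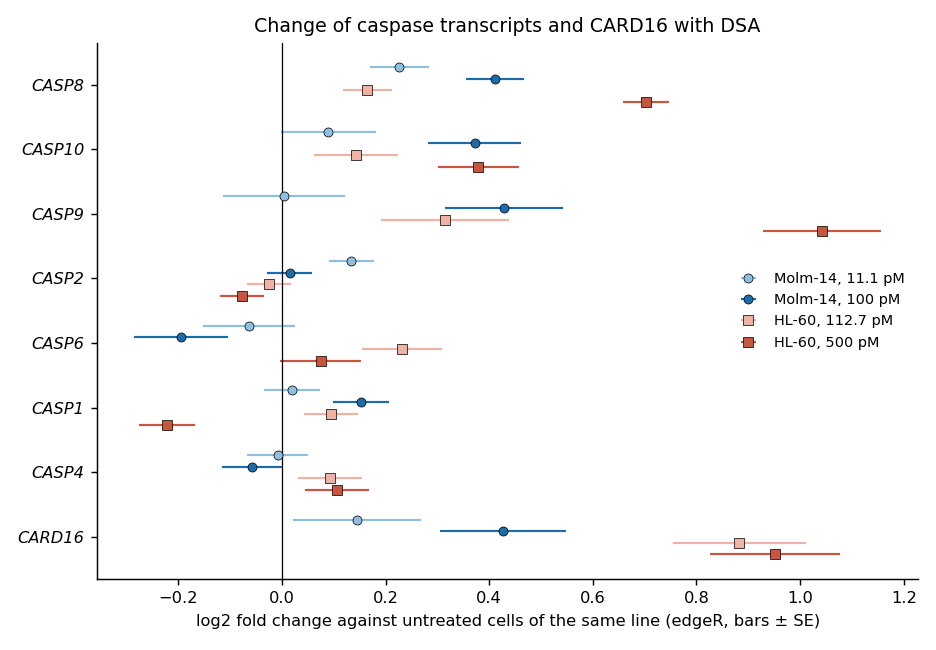
Log2 fold change of each caspase and CARD16 against untreated cells of the same line (x axis), with bars of ± 1 SE from edgeR. CASP9 in HL-60 cells at 500 pM is farthest from 0 at 1.04, and CASP1 lies at 0.15 in Molm-14 cells at 100 pM and at -0.22 in HL-60 cells at 500 pM.

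CASP6 encodes caspase-6, which cuts lamin A (ENSG00000138794, chr4:109688622-109703583, minus strand). In Molm-14 cells it was at 8.69 and 8.34 CPM in the controls, 8.05 and 8.25 CPM at 11.1 pM and 7.72 and 7.14 CPM at 100 pM. The means went down with each dose, but the change at 100 pM of -0.19 ± 0.090 missed the threshold (adjusted p = 0.0886). In HL-60 cells the values were 13.4 and 13.1 CPM in the controls, 15.9 and 15.2 CPM at 112.7 pM and 13.5 and 14.3 CPM at 500 pM. CASP6 thus rose at the low dose (0.23 ± 0.077, adjusted p = 0.0173) and stood closer to the controls at the high dose (0.07 ± 0.078, adjusted p = 0.397). The low-dose call was lost with DESeq2 (adjusted p = 0.0538), without the second HL-60 control (adjusted p = 0.0921) and without the first library at 112.7 pM (adjusted p = 0.097).

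CASP1 and CASP4, the inflammatory members, lie on the minus strand of chromosome 11 (ENSG00000137752, chr11:105025397-105035250, and ENSG00000196954, chr11:104942866-104969366), with CASP5 between them and CARD16 6075 bases beyond CASP1. CASP4, which encodes a sensor of lipopolysaccharide, was at 60.6 and 58.4 CPM in Molm-14 controls, 60.3 and 58.0 CPM at 11.1 pM and 55.4 and 59.0 CPM at 100 pM. In HL-60 cells the values were 43.7 and 46.0, then 45.3 and 50.1, then 44.9 and 51.2 CPM. Both series overlapped between doses, and the changes at the high dose were -0.06 ± 0.059 in Molm-14 (adjusted p = 0.463) and 0.11 ± 0.061 in HL-60 cells (adjusted p = 0.126). The second value passed with RLE factors (0.16, adjusted p = 0.0265), when genes under a mean of 50 counts were left out (0.16, adjusted p = 0.0212), with total counts alone (0.29, adjusted p = 0.000356) and without the first library at 500 pM (0.19, adjusted p = 0.0166). CASP5, the closest relative of CASP4, had at most 1 count in any library.

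CASP1 encodes caspase-1, which matures interleukin-1 beta and interleukin-18. It was at 32.5 and 33.7 CPM in Molm-14 controls, 34.9 and 32.2 CPM at 11.1 pM and 36.8 and 36.7 CPM at 100 pM. The rise at 100 pM was small (0.15 ± 0.053, adjusted p = 0.0267) and did not hold with DESeq2 (adjusted p = 0.129), with all gene types (adjusted p = 0.0677), without a filter on low counts (adjusted p = 0.0606) or when any of the 4 libraries compared was left out (0.13 to 0.18, adjusted p from 0.051 to 0.173). In HL-60 cells CASP1 was at 37.2 and 36.6 CPM in the controls, 38.4 and 40.2 CPM at 112.7 pM and 30.8 and 32.3 CPM at 500 pM. The high dose lay below both other groups, with a change of -0.22 ± 0.054 from the controls (adjusted p = 0.0011) and of -0.32 ± 0.057 from the low dose (adjusted p = 0.000124). Scaling by total counts alone, which moves the median of all genes in this comparison to 0.18, took CASP1 at 500 pM to -0.04 (adjusted p = 0.532).

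CARD16 encodes a protein made of little more than a copy of the recruitment domain of caspase-1, and its transcript is nearly identical to the start of CASP1, so how RSEM divides reads between the 2 genes is uncertain. In HL-60 cells CARD16 was at 4.02 and 4.06 CPM in the controls, 7.57 and 7.36 CPM at 112.7 pM and 8.15 and 7.56 CPM at 500 pM. It rose 1.84-fold (adjusted p = 1.35e-05) and 1.93-fold (adjusted p = 1.6e-06). Its share of the counts of both genes went from 9.753% and 9.979% in the controls to 20.91% and 18.98% at 500 pM, with no overlap. In Molm-14 cells CARD16 was at 6.42 and 5.50 CPM in the controls and 8.80 and 7.17 CPM at 100 pM, a 1.34-fold rise (0.43 ± 0.12, adjusted p = 0.00748) with no overlap. Its share there was 16.5% and 14.04% in the controls and 19.3% and 16.33% at 100 pM, which overlapped. When the counts of both genes were summed, the fall at 500 pM was no longer called (-0.05, adjusted p = 0.331), the change at 112.7 pM was (0.19, adjusted p = 0.00222), and the rise in Molm-14 cells was 0.20 (adjusted p = 0.00247). The fall of the sum from 112.7 to 500 pM was still called (-0.25, adjusted p = 0.000455).

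**Figure D3:**
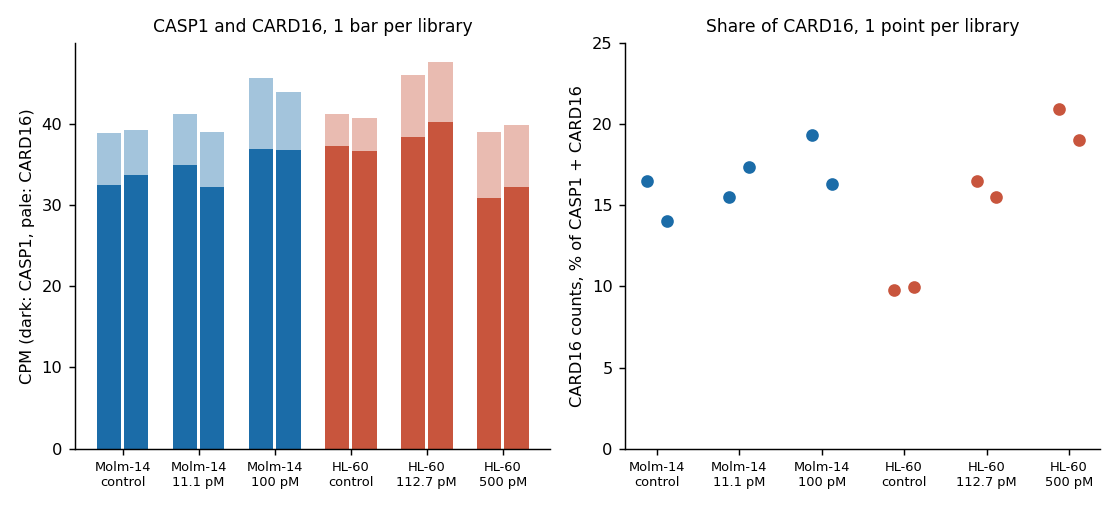
Left, CPM of CASP1 (dark) with CARD16 (pale) stacked on it, 1 bar per library from 0. Right, CARD16 as a percent of the expected counts of both genes. In HL-60 cells the CARD16 share is 9.753% and 9.979% in the controls and 20.91% and 18.98% at 500 pM, while the summed CPM is 41.2 and 40.6 in the controls and 39.0 and 39.8 at 500 pM.

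At the low doses the 2 lines differed in how many genes passed at all. In Molm-14 cells at 11.1 pM 0 of the 7 caspases were called in either direction by edgeR, with 2 (CASP2 and CASP8) at an unadjusted p under 0.05, where 0.969% of all genes were called higher and 0.238% lower. DESeq2 and limma-voom also called 0. In HL-60 cells at 112.7 pM 3 were higher (CASP6, CASP8 and CASP9) and 0 lower, beside 24.2% and 27.4% of all genes. From the low to the high dose CASP8, CASP9 and CASP10 rose in both lines, and CASP2 in Molm-14 and CASP1 in HL-60 cells fell. These were 3 members higher and 1 lower in each line, where 19.6% of all genes were called higher and 18.5% lower for Molm-14, and 25.9% and 26.8% for HL-60 cells. The step in HL-60 cells was 0.54 ± 0.047 for CASP8 (adjusted p = 2.15e-08), 0.73 ± 0.12 for CASP9 (adjusted p = 5.67e-05) and 0.24 ± 0.083 for CASP10 (adjusted p = 0.0228). In Molm-14 cells it was 0.18 ± 0.054 (adjusted p = 0.0108), 0.42 ± 0.11 (adjusted p = 0.00551) and 0.28 ± 0.087 (adjusted p = 0.0154). CASP10's step in HL-60 cells was lost without the second library at 500 pM (0.10, adjusted p = 0.419) or the first at 112.7 pM (0.18, adjusted p = 0.15), and with DESeq2 it was lost in both HL-60 (adjusted p = 0.103) and Molm-14 cells (adjusted p = 0.0677). In Molm-14 cells each of the 3 lost its call when 1 of the treated libraries was left out: the second at 100 pM for CASP9 (0.33) and CASP10 (0.23), the second at 11.1 pM for CASP10, and the first of either dose for CASP8 (0.16 and 0.15). The high dose libraries enter both this step and the comparison with the controls.

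The lines also differed before treatment. In the controls 5 members were higher in HL-60 than in Molm-14 cells and 2, CASP9 and CASP4, were lower, and 43.9% and 40.1% of all genes were called higher and lower. CASP8 stood 2.35-fold above its level in Molm-14 cells (1.24 ± 0.051, adjusted p = 2.29e-14), the only member past 2-fold, where 16.5% of all genes were. CASP10 (0.65 ± 0.084) and CASP6 (0.64 ± 0.081) followed. CASP9 was lower by a log2 difference of -0.41 ± 0.12 (adjusted p = 0.00338) and CASP4 of -0.40 ± 0.059 (adjusted p = 3.26e-06), whereas CASP1 differed by 0.16 (adjusted p = 0.00953), a call lost with CARD16 summed (0.07, adjusted p = 0.19), with DESeq2 and without the first Molm-14 control.

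Whether the lines answered DSA differently was tested as the change in HL-60 minus the change in Molm-14 cells. At the high doses CASP9 rose more in HL-60 cells, by 0.61 ± 0.16 (adjusted p = 0.00321), and so did CASP8, by 0.29 ± 0.072 (adjusted p = 0.00192). CASP1 went the other way, with a difference of -0.37 ± 0.076 (adjusted p = 0.000348), and -0.25 with CARD16 summed (adjusted p = 0.00425). These 3 of 7 stood beside 25.1% of all genes with a positive and 30.3% with a negative difference. For CASP6 the difference was 0.27 ± 0.12 (adjusted p = 0.0627) and for CASP4 0.16 ± 0.085 (adjusted p = 0.113), and both passed with RLE factors, with total counts alone and with a minimum mean of 50 counts. CASP4 also passed without the first HL-60 library at 500 pM (0.24, adjusted p = 0.0199), and CASP2 without the second (-0.16, adjusted p = 0.0378). The pair of doses nearest each other, 112.7 pM for HL-60 and 100 pM for Molm-14 cells, was compared as well. There CASP8 rose less in HL-60 cells (-0.25 ± 0.073, adjusted p = 0.0117), CASP6 differed by 0.43 ± 0.12 (adjusted p = 0.00798) and CASP9 by -0.11 ± 0.17 (adjusted p = 0.65), beside 16.7% and 21.0% of all genes. The CASP8 difference at near-equal dose was lost with DESeq2 (-0.19, adjusted p = 0.137) and without the first Molm-14 control (adjusted p = 0.0672) or the first library at 100 pM (adjusted p = 0.052).

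The order of levels per transcript length was steady in Molm-14 cells and moved in HL-60 cells. In Molm-14 controls the mean TPM ran from CASP4 (62.0 ± 2.67 SD, n = 2) through CASP1 (41.1 ± 1.68), CASP2 (22.5 ± 0.255), CASP8 (14.0 ± 0.17), CASP6 (10.1 ± 1.03) and CASP9 (5.17 ± 0.622) to CASP10 (3.82 ± 0.629), with no overlap between neighbors. The same order held at 11.1 and 100 pM. In HL-60 controls CASP4 (49.5 and 50.5 TPM) and CASP1 (mean 41.9) also led, but CASP8 (30.1) came next, ahead of CASP2 (28.6), CASP6 (16.4), CASP10 (6.28) and CASP9 (3.59). At 500 pM CASP8 had reached 53.6 and 54.1 TPM, within the range of CASP4 at 50.3 and 60.4 TPM, and stood above CASP1 at 41.5 and 36.9 TPM. CASP9 had 6.96 and 7.41 TPM there and overlapped CASP10 at 6.26 and 8.01 TPM, whereas in the controls it lay below it.

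Together CASP8, CASP9 and CASP10 made up 14.18% and 14.77% of the TPM of the 7 members in Molm-14 controls and 17.92% and 17.67% at 100 pM. In HL-60 cells their share went from 22.75% and 22.45% in the controls through 24.07% and 24.46% at 112.7 pM to 32.75% and 31.81% at 500 pM. The groups did not overlap, and the shift lay mostly at the high dose. These 3 were grouped after they had been called higher in the same libraries, so a rising share follows from that choice. It is a description only. By gene, from HL-60 controls to 500 pM, the mean share went from 17.02% to 25.49% for CASP8 and from 2.028% to 3.401% for CASP9. That of CASP10 went from 3.549% to 3.378%. The sum of the 7 was 175 and 179 TPM in HL-60 controls and 204 and 218 TPM at 500 pM, and between 155 and 166 TPM in all Molm-14 libraries. TPM are not scaled with TMM factors, which were 0.9658 and 0.9704 in HL-60 controls and 1.099 and 1.1 at 500 pM. The factors alone make rises between these groups larger in TPM than in CPM, but TPM also depend on the estimated transcript length. The mean of CASP2 went from 28.59 to 29.03 TPM but from 91.79 to 86.7 CPM. For CASP10 and CASP9 the rise was instead smaller in TPM. CASP10 went from 6.275 to 7.135 TPM and from 15.96 to 20.56 CPM, while its mean transcript length went from 3036 to 3564 bases. CASP9 went from 3.585 to 7.185 TPM and from 4.646 to 9.565 CPM.

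**Figure D4:**
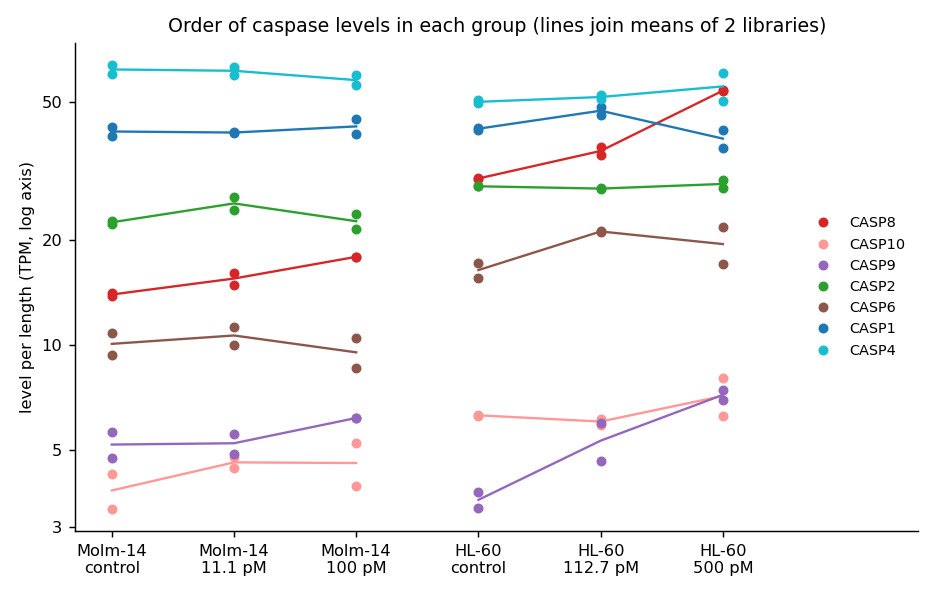
Level per transcript length (TPM, log axis) of the 7 caspases in each group, with points for libraries and lines joining the means of 2 within a line of cells. In HL-60 cells the line of CASP8 climbs from 30.1 TPM past CASP1 to 53.8 TPM and that of CASP9 from 3.59 to 7.19 TPM, and in Molm-14 cells no lines cross.

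RSEM also gives each gene's mean transcript length, weighted by how it splits reads between isoforms. This is a description only, since 2 libraries against 2 cannot go below an exact two-sided permutation p of 0.333. CASP10 had 3080 and 2991 bases in HL-60 controls, 3384 and 3406 at 112.7 pM and 3695 and 3433 at 500 pM, with no overlap, while in Molm-14 cells it ran from 2592 to 3506 with no order by dose. CASP9 was shorter in HL-60 cells at 112.7 pM (1370 and 1428 bases) than in the controls (1698 and 1581) and at 500 pM (1724 and 1741). CASP8 was longest in HL-60 controls (2111 and 2057 bases). CASP4 stayed between 1169 and 1235 bases in all 12 libraries. For these genes a change in TPM therefore holds both the change in counts and the estimated change in length.

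The promoter letters of the 2 members with the largest log2 fold changes and of CASP4 and CASP6, which did not pass the test at the high doses, are shown to compare their base composition. RefSeq promoter windows on GRCh38.p14, from 250 bases before to 50 bases after a start site, were matched for 5 of the 7 members (CASP2, CASP4, CASP6, CASP8 and CASP9), with 9 windows in all. The 250 bases before the start are printed 5′ to 3′ on the gene's strand, with capitals on GC boxes, CCAAT boxes, interferon-activated GAS elements and interferon regulatory factor (IRF) repeats, searched on both strands. They are 2 windows of CASP9 (chr1:15524216-15524465 and chr1:15524791-15525040, minus strand), the first window of CASP8 (chr2:201233213-201233462, plus strand), that of CASP6 (chr4:109703446-109703695, minus strand) and that of CASP4 (chr11:104968575-104968824, minus strand). The start sites of both CASP9 windows, at positions 15524215 and 15524790, lie inside the GENCODE span of the gene.
CASP9, window 1: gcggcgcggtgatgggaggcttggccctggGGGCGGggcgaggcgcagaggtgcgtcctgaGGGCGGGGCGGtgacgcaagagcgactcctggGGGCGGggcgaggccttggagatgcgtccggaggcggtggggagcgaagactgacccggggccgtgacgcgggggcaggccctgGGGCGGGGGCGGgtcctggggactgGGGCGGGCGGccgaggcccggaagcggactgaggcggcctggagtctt
CASP9, window 2: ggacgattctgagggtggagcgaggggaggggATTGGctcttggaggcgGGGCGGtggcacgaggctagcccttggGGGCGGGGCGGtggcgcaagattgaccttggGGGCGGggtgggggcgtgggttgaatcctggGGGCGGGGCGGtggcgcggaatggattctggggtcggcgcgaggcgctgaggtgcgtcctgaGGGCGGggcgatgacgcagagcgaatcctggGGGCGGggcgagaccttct
CASP8, window 1: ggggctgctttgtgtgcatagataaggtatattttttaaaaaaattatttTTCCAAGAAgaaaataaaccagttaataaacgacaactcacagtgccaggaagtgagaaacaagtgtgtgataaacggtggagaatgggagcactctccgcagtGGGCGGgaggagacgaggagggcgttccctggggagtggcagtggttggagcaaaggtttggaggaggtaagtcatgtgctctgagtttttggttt
CASP6: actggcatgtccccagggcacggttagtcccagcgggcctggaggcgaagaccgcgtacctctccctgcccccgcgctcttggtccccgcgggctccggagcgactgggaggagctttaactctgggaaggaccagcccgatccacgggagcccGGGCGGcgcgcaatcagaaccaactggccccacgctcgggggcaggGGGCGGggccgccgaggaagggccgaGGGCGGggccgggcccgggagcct
CASP4: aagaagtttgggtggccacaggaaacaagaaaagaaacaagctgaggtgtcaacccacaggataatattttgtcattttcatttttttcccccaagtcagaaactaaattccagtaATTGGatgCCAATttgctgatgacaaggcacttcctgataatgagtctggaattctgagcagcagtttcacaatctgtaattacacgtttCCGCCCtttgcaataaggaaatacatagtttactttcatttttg

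Both CASP9 windows were rich in G and C, with 24.0% and 28.7% A or T against a median of 41.3% over all 35116 windows, and held 8 and 9 GC boxes in their 300 bases, some overlapping. A GC box was the letters GGGCGG and was found in 45.0% of all windows. The CASP8 window had 53.7% A or T, 1 GC box 96 bases before the start, 1 GAS element 200 bases before it and 1 IRF repeat that begins 3 bases before the start and runs past it, so that only 3 of its bases are printed, in lower case. GAS elements, read as TTCNNNGAA, were in 7.66% of all windows. IRF repeats, a pair of GAAA set apart by 2 bases, were in 3.57%. CASP6 and the first CASP2 window, of genes that did not pass at the high doses, were about as rich in G and C as those of CASP9, with 28.0% and 28.7% A or T and 3 and 4 GC boxes. CASP4 had 60.3% A or T, 1 GC box and 2 CCAAT boxes, a motif held by 34.6% of all windows. The TATA box (TATAAA, 11.5% of windows), the ETS core (CGGAAG, 19.5%) and the p53 decamer (6.63%) were searched too and are not in capitals. The p53 decamer matched in the second CASP9 window, 188 bases before the start, and in the second CASP8 window, 121 bases before it. A match is a match of letters only, not a site in use.

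Lists of genes that act with the caspases were counted at the high doses, and their counts stand beside 22.9% of all genes higher and 21.9% lower at 100 pM, and 35.8% and 37.8% at 500 pM. Of 6 genes of the apoptosome and of mitochondrial release, 1 rose and 3 fell in Molm-14 cells at 100 pM (median -0.09) and 1 rose and 5 fell in HL-60 cells at 500 pM (median -0.22). APAF1, the scaffold that gathers caspase-9, was the one that rose in both lines, by 0.35 (adjusted p = 8.41e-06) and 0.15 (adjusted p = 0.0169). HTRA2, a mitochondrial protease that blocks caspase inhibitors once released, fell in both, by 0.23 (adjusted p = 0.00226) and 0.70 (adjusted p = 4.36e-10). CYCS, which encodes cytochrome c, went from a mean of 608 to 329 CPM in HL-60 cells (-0.88, adjusted p = 1.21e-12) and was at 216 and 208 CPM in Molm-14 cells (adjusted p = 0.348). CASP9 and CYCS thus lay on opposite sides in HL-60 cells.

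The shares of all genes given above hold for the next lists too, and most counts of the adaptors, and those of the inhibitors in HL-60 cells, lay close to them. Of 6 adaptors that bring initiators together, 1 rose and 1 fell in Molm-14 cells (median -0.03), and 3 rose and 2 fell in HL-60 cells (median 0.32). PIDD1, the core of the PIDDosome, rose in both lines, by 0.69 (adjusted p = 5.65e-09) and 0.99 (adjusted p = 1.65e-11), while CASP2, the caspase it recruits, did not pass the test. CRADD, the other part of the PIDDosome, fell by 0.70 in HL-60 cells (adjusted p = 1.33e-05), and FADD fell there by 0.18 (adjusted p = 0.0189). In Molm-14 cells CRADD stood at -0.18 (adjusted p = 0.116) and FADD at -0.13 (adjusted p = 0.122). RIPK1 and TRADD, which carry death receptor signals, rose in HL-60 cells by 0.65 and 0.77 and stood at 0.08 (adjusted p = 0.294) and 0.07 (adjusted p = 0.583) in Molm-14 cells, and the difference between the lines passed for both (0.57, adjusted p = 3.05e-05, and 0.70, adjusted p = 0.000108). Among 8 caspase inhibitors, 4 rose and 1 fell in Molm-14 (median 0.17), and 3 rose and 3 fell in HL-60 cells (median -0.08). BIRC5, which encodes survivin, fell by 0.50 in Molm-14 (adjusted p = 1.83e-09) and changed by 0.01 in HL-60 cells (adjusted p = 0.762), whereas BIRC3, which encodes cIAP2, went from 4.53 to 14.0 CPM in HL-60 cells (1.61, adjusted p = 2.54e-09) and was at a mean of at most 0.145 CPM in every Molm-14 group. BIRC7 was at 0.0134 CPM in HL-60 controls and 0.791 CPM at 500 pM, too low in the controls for a fold change. It passed the filter on low counts through the treated HL-60 libraries, and without it 2 inhibitors rose and 3 fell of 7 in HL-60 cells (median -0.18).

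Of these lists, those of the inflammasome and of its substrates had the highest medians, most of all in HL-60 cells. CASP1 itself was lower there, but that call was lost with CARD16 summed and with total counts alone. Of 13 listed sensors and adaptors of caspase-1, 10 were tested, and 6 rose and 1 fell in Molm-14 cells (median 0.39) and 9 rose and 0 fell in HL-60 cells (median 1.62). PYCARD, the adaptor ASC, rose by 0.22 (adjusted p = 0.00112) and 0.55 (adjusted p = 2.28e-08). NLRP1, a sensor, rose by 1.36 in Molm-14 (adjusted p = 1.76e-06) and from 0.197 to 1.88 CPM in HL-60 cells (adjusted p = 1.19e-08). NLRP12, an NLR protein described mostly as a brake on inflammation, fell from 7.73 to 3.94 CPM in Molm-14 cells (adjusted p = 6.24e-06) and rose from 0.118 to 3.39 CPM in HL-60 cells (adjusted p = 5.76e-12), and this difference between the lines passed (adjusted p = 1.05e-11). CARD16 is a member of this list. AIM2 passed the filter on low counts through the treated HL-60 libraries, and without it 8 of 9 rose in HL-60 cells (median 0.95). That median still holds MEFV, NLRP12 and NLRP1, at 0.0643, 0.118 and 0.197 CPM in HL-60 controls. These levels are too low for a fold change, so the size of the HL-60 medians of this list is uncertain.

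Of 7 pyroptosis and interleukin-1 genes, 6 were tested, of which 3 rose in Molm-14 (median 0.34) and 6 in HL-60 cells (median 1.36). IL1A also passed the filter through the treated HL-60 libraries, and without it 5 of 5 rose there (median 0.77). GSDMD, whose product forms the pyroptotic pore once a caspase has cut it, went from 3.89 to 15.5 CPM in HL-60 cells (adjusted p = 1.69e-12) and was at 37.2 and 39.5 CPM in Molm-14 cells (0.09, adjusted p = 0.275). IL1B rose by 0.85 in Molm-14 (adjusted p = 0.00604) and by 2.11 in HL-60 cells (adjusted p = 1.89e-12), and IL18 by 0.20 (adjusted p = 0.0259) and 0.77 (adjusted p = 3.7e-08). Of 12 apoptotic substrates, 2 rose and 2 fell in Molm-14 cells (median -0.01), where 22.9% and 21.9% of all genes did, and 3 rose and 6 fell in HL-60 cells (median -0.08), where 35.8% and 37.8% did. LMNA, which encodes the lamin cut by caspase-6, rose by 0.90 and 1.10. DFFB, the nuclease that fragments DNA, fell by 0.81 in HL-60 (adjusted p = 3.55e-10) and changed by 0.02 in Molm-14 cells (adjusted p = 0.868), and PAK2 fell by 0.47 in HL-60 and rose by 0.10 in Molm-14 cells (adjusted p = 0.0225).

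**Figure D5:**
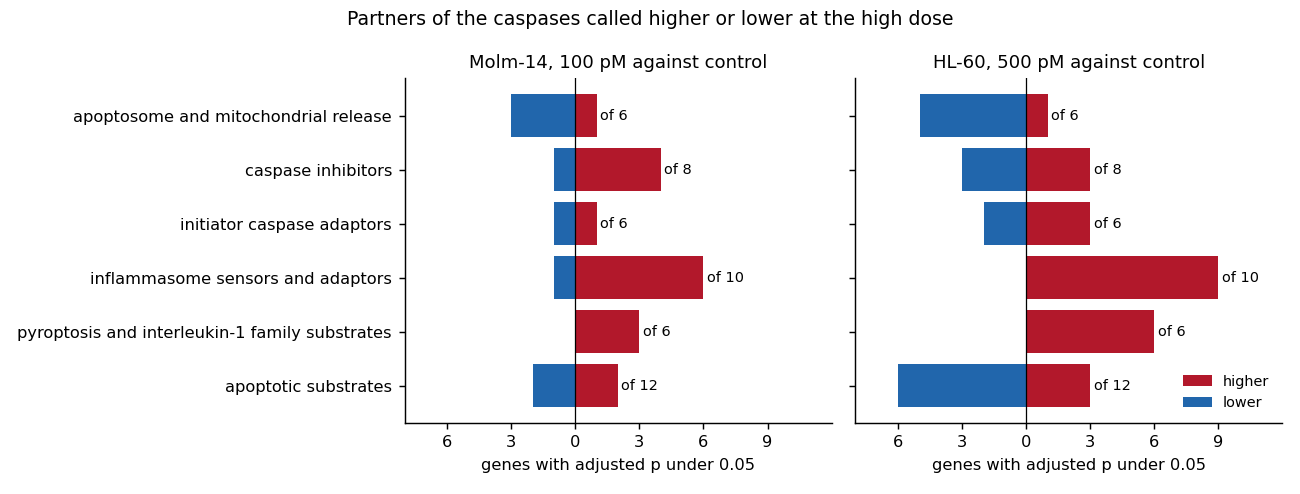
Number of genes in each list of caspase partners with an adjusted p under 0.05 at the high dose, lower to the left of 0 and higher to the right, with the number tested beside each bar. In HL-60 cells 9 of 10 inflammasome genes and 6 of 6 pyroptosis and interleukin-1 genes are higher, and 5 of 6 apoptosome and mitochondrial genes are lower. Of all genes, 35.8% were called higher and 37.8% lower there. Without AIM2 and IL1A, which passed the filter through the treated HL-60 libraries, 8 of 9 and 5 of 5 are higher.

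Markers of more mature blood cells moved along with these genes. Their counts, and those of the interferon response genes and p53 targets, stand beside 22.9% of all genes higher and 21.9% lower at 100 pM in Molm-14 cells. In HL-60 cells at 500 pM these shares were 35.8% and 37.8%. The summed abundance of 10 monocyte markers was 136 to 139 CPM in Molm-14 controls and 233 to 234 CPM at 100 pM, and 69.5 to 69.9 CPM in HL-60 controls and 251 to 252 CPM at 500 pM, with 3 of 6 tested higher and 1 lower in Molm-14 and 6 of 6 higher in HL-60 cells. FCGR3A was at 0 in every library, and CD14 was at 0.0773 and 0.132 CPM in Molm-14 and at 1.02 and 21.9 CPM in HL-60 cells. For 12 granulocyte markers the sums were 82.5 to 83.7 CPM in the controls and 162 to 165 CPM at 100 pM for Molm-14, and 122 CPM in both controls and 320 to 322 CPM at 500 pM for HL-60 cells, and 6 of 7 tested rose in each line. CAMP passed the filter through the treated HL-60 libraries, and without it 5 of 6 rose in HL-60 cells. The Molm-14 count holds FPR1, which passed the filter through the HL-60 libraries and was at 0.0299 and 0.19 CPM in Molm-14 cells. It also holds MMP9, at 0.247 and 0.601 CPM there. Both were too low in the Molm-14 controls for a fold change. FCGR3B, CEACAM8, LTF and LCN2 were at 0 in all Molm-14 groups and at or below 0.0848 CPM in HL-60 cells. Of 12 interferon response genes, 6 rose in Molm-14 cells, where their sum was 157 to 163 CPM in the controls and 182 to 183 CPM at 100 pM. In HL-60 cells 11 rose and 1 fell, and the sum was 165 to 171 CPM in the controls and 266 to 289 CPM at 500 pM. GBP1 was at 0 in all Molm-14 libraries and passed the filter through the treated HL-60 libraries, and without it 10 rose and 1 fell of 11 in HL-60 cells. Of 16 p53 targets, 16 rose in Molm-14 cells (1026 to 1056 CPM summed in the controls, 2388 to 2398 CPM at 100 pM), and 9 rose and 3 fell in HL-60 cells (347 to 359 and 369 to 379 CPM). Lymphoid markers summed to 27.7 and at most 40.1 CPM in Molm-14 and to at most 15.4 and 74.0 CPM in HL-60 cells, most of it NKG7, with MS4A1 at 0 throughout. In bulk RNA a change in the number of cells of a kind and a change in RNA per cell cannot be told apart, and the part of these shifts in the values of the caspases was not tested.

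The genes whose abundance followed each caspase most closely were found from log2 CPM over the 12 libraries after each line's own mean was taken off, so that the points share libraries, depth and dose. For CASP8 these were SHTN1 (Pearson r = 0.982) and ZNF789 (0.981), for CASP9 IFIT3 (0.987) and MAP4K4 (0.984), and for CASP10 SPATC1 (0.966) and ZNF610 (0.965). CASP1 was closest to RNASE3 (0.948) and RUSF1 (0.944). Both lay higher at 100 pM in Molm-14 and lower at 500 pM in HL-60 cells, which choosing them by correlation with CASP1 in these libraries favors. For CASP6 they were BCAT2 (0.902) and NUDT1 (0.892), for CASP4 MRPS33 (0.923) and LCMT2 (0.871), and for CASP2 HUWE1 (0.858) and PSME3IP1 (0.851). Among the members CASP8, CASP9 and CASP10 had r between 0.837 and 0.932 with each other, and CASP1 had -0.452 with CASP8 and -0.479 with CASP9.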

How the data were processed

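RNA of 12 libraries was analysed. The authors trimmed reads with Trim Galore (0.60), mapped them to hg38 with STAR (2.7) and used RSEM (1.31) with GENCODE release 31 to make the expected counts of each gene, which are not scaled. The deposited TPM values and mean transcript lengths (in bases, another RSEM column) were used for levels between genes. FPKM values were not used, and the labels and methods do not say if counting was stranded. Identifiers were looked up in GENCODE release 44 (60261 of 60754 matched). Expected counts were rounded, protein-coding genes of level 1 or 2 (19868) were filtered with filterByExpr (13422 left), and edgeR 4.0.16 in R 4.3.3 fitted 1 mean per group over all libraries with TMM factors and quasi-likelihood tests, with Benjamini-Hochberg adjustment over all genes tested. The SE is the log2 fold change divided by the square root of F. The test was also tried on simulated counts, with means and spreads taken from the fit, and the outcome is not reported here. The members and lists were chosen with earlier results of these data known, though no measured value defines the members. Apart from CASP5, a partner of CASP4, other caspase genes were not analysed here. Replicate libraries differed by more than sampling noise, so none was counted as a duplicate. Named partners were up to 3 genes per list with the smallest p in a high dose comparison, with neighbors and near-identical copies of members. Some others, such as CRADD, FADD and MEFV, are named to show a limit or the other direction. Alternatives were DESeq2 1.42.0, limma-voom (limma 3.58.1), RLE factors, total counts alone, no filter, a minimum mean of 50 counts, all types of gene, only the groups compared, a replicate block, summed partner genes, and each library left out.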

Additional observations from a re-analysis of the deposited data

Results flagged for a closer look

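By a test of the difference itself, the change with DSA differed between the lines for 3 caspases at the high doses. At near-equal doses it differed for 2. Of all genes, 25.1% were called with a positive and 30.3% with a negative difference at the high doses. At near-equal doses these shares were 16.7% and 21.0%. Such differences were thus common among all genes and do not set the caspases apart. At the high doses the difference, HL-60 minus Molm-14, was -0.3743 for CASP1, 0.2915 for CASP8 and 0.6137 for CASP9 on the log2 scale. At near-equal doses it was 0.4263 for CASP6 and -0.2465 for CASP8. CASP8 thus changed side between the pairs of doses, with the same Molm-14 libraries in both. Line, medium, serum and dose cannot be told apart in these differences. No group had the 4 samples needed to look for a library far from the others.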

How the results depend on the processing

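With 2 libraries per group, lower depth in some HL-60 libraries and CASP9 at 132 to 321 counts, changes near 0.2 on the log2 scale were at the limit of what could be called. Of 1386 values of single caspases under 22 alternatives, 1274 kept their direction and side of the threshold, 44 calls were lost, 32 gained and 36 values changed sign, and in 0 of these had the original value passed. The replicate numbers did not pair the libraries (deviations of same-numbered libraries correlated between -0.0697 and 0.0748), and with the replicate block all 81 results kept their side, with 4 and 3 caspases higher at the high doses in Molm-14 and HL-60 cells.

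Total counts alone moved the median log2 fold change of all genes to 0.18 at 500 pM and to 0.072 at 112.7 pM. The share of all genes called under that scaling is not given here. With it 6 caspases rose and 0 fell at 500 pM, 6 rose at 112.7 pM and 1 was higher in Molm-14 cells at 11.1 pM. Between the Molm-14 doses 0 were lower, and 4 differed upward between the lines at the high doses. That count of 4 also came with RLE factors and with a minimum mean of 50 counts. The minimum mean of 50 and no filter each gave 1 higher at 11.1 pM. All gene types gave 2 lower at 500 pM and summed partner genes 0. DESeq2 gave 1 higher at 112.7 pM, 0 lower between the Molm-14 doses and 0 with a negative difference at near-equal dose. With 1 library left out, 2 to 4 caspases were higher at 100 pM, 1 to 2 lower at 500 pM, 0 to 1 higher at 11.1 pM, 1 to 3 higher at 112.7 pM, 1 to 4 higher and 0 to 1 lower between the Molm-14 doses, and 1 to 2 and 0 to 1 had a negative difference between the lines at the high and near-equal doses.

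The sign changes were of values that had not passed the test, and their cause was not tested. CASP2 at 500 pM passed with the opposite sign under total counts alone (adjusted p = 0.0324). For CASP2 total counts alone gave 0.1058 at 500 pM, 0.04812 at 112.7 pM, 0.05769 between the HL-60 doses, and 0.05832 and 0.0006294 between the lines at the high and near-equal doses. CASP2 was also 0.02517 with DESeq2, 0.02532 with RLE factors and 0.0006708 with a minimum mean of 50 at 112.7 pM, 0.01594, 0.01616 and, with only the groups compared, 0.002243 between the lines at near-equal dose, and -0.008507 with all gene types and -0.0004747 without a filter at 100 pM. CASP9 at 11.1 pM was -0.0007608 with DESeq2, -0.0002971 with RLE factors, -0.01026 with all gene types and -0.005866 without a filter. CASP4 was 0.009176 with total counts alone at 11.1 pM, and -0.00578 with all gene types and -0.004447 without a filter between the HL-60 doses. With 1 library left out CASP2 ran from -0.01434 to 0.04286 at 100 pM and from -0.1236 to 0.0005193 between the HL-60 doses, and CASP4 from -0.003671 to 0.1853 at 500 pM, -0.03778 to 0.01949 at 11.1 pM and -0.09557 to 0.09661 between the HL-60 doses. At 11.1 pM CASP1 ran from -0.03841 to 0.07369 and CASP9 from -0.0556 to 0.05627. Between the lines CASP10 ran from -0.1289 to 0.1031 at the high doses and CASP9 from -0.2316 to 0.02422 at near-equal dose.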
